A study of Mus musculus with 18 samples.

Results

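The cytosolic ribosomal protein genes were followed through B cell differentiation in mouse spleen, in libraries labelled G9a KO and Ctrl. They were taken by symbol: every gene named Rpl or Rps with a number, together with Rplp0, Rplp1, Rplp2 and Rpsa, leaving out the Rps6k kinases, Rps19bp1 and symbols ending in -ps. This gave 84 of the 12960 genes in the deposited table, 51 of the large and 33 of the small subunit, and all 84 passed the filter on low values. The gene annotation (GENCODE, GRCm38) lists 81 of them as protein coding, while Rpl37rt, Rpl32l and Rps4l are processed copies listed as pseudogenes. Of the genes left out, 9 were kinase genes and 5 were pseudogenes with a -ps suffix.

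Levels were deposited as RPKM (read counts divided by gene length and by the library's mapped reads), in 18 libraries of 6 groups with 3 libraries each. KO mice carried G9afl/fl and 1 Cre allele active in B cells, so that floxed G9a could be deleted there; G9a is a histone H3 lysine 9 methyltransferase whose gene the table calls Ehmt2. Ctrl mice carried the same Cre allele alone, so both genotypes are heterozygous for it. Each genotype was sampled as naive B cells, enriched with CD43 beads from spleens of uninfected mice, as activated B cells (B220+ GL7+, gated to leave out cells with F4/80, CD11b or Thy1.2) and as plasma cells (CD138+, with B220 mid or low). The activated and plasma cells were sorted 72 h after 50 µg of lipopolysaccharide (LPS) was injected into the tail vein, and each library was made from 1000 cells with the SMART-seq v4 and Nextera XT kits. Stage and treatment therefore cannot be told apart between naive and LPS samples, nor can bead enrichment and sorting. Nothing in the labels ties each library to its own mouse, so p-values measure the spread between these libraries.

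The cytosolic ribosome joins a small subunit, which reads the mRNA, to a large subunit, which makes the peptide bonds. Each subunit holds ribosomal RNA and many small basic proteins, nearly all needed once per ribosome, so their genes are usually expressed at similar high levels. Their mRNAs begin with a terminal oligopyrimidine (TOP) tract through which mTORC1 controls translation. Plasma cells are antibody factories with an enlarged protein synthesis machinery. A few ribosomal proteins have a second gene, a paralog, and in some pairs its product can take the same place in the ribosome.

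One such pair, Rps27 and Rps27l, showed opposite courses in these libraries, and its coding sequences are shown to let a reader see how far reads can be told apart. Both encode the zinc-finger protein eS27 of the small subunit. Rps27 lies on chromosome 3 from 90212522 to 90213651 on the reverse strand and Rps27l on chromosome 9 from 66946086 to 66949516 on the forward strand (GRCm38). The coding sequences, without the stop codon, have 252 bases each and agree at 192 of them (76.2%), and the longest identical run has 11 bases. Capitals mark the bases that differ.
Rps27: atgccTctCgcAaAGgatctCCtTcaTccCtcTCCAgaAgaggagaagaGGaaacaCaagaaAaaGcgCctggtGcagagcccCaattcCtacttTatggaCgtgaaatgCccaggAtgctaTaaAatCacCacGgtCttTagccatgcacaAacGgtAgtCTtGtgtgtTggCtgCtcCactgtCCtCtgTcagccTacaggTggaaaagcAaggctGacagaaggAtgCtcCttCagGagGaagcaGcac
Rps27l: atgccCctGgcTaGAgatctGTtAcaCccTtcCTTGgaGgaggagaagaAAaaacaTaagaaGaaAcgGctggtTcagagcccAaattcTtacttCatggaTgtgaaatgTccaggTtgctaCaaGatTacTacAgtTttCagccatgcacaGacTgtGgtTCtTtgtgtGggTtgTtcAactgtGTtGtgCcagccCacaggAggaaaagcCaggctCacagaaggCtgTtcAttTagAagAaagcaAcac

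The level of Ehmt2 does not tell the genotypes apart in this table. Ehmt2 had 13.8, 23.1 and 13.8 scaled RPKM in naive KO libraries, against 27.4, 16.5 and 13.7 in naive Ctrl. It had 23.1, 22.3 and 21.4 in activated KO libraries, against 21.4, 19.3 and 25.5 in activated Ctrl. It had 14.6, 12.2 and 14.2 in plasma KO libraries, against 17.5, 16.1 and 17.6 in plasma Ctrl, where the groups do not overlap. No Ehmt2 difference was called (limma adjusted p = 0.695 in naive cells and 1.000 and 1.000 in activated and plasma cells), and a whole-gene value does not show whether the floxed exons were lost, so KO is used here as the label gives it. Here and below, scaled RPKM are RPKM divided by a median-of-ratios factor, which lay between 0.911 and 1.08. The sources used here give no read totals. The spacing of low values gave rough depths of 1.62 to 4.06 M reads in naive, 2.66 to 10.8 in activated and 5.09 to 6.93 in plasma libraries. Sdc1, which encodes CD138, read 134 to 187 in plasma libraries and at most 10 in the others. The naive libraries also held more RNA of other blood cells: the 3 measured of 7 erythroid markers summed to 282 to 503 scaled RPKM in naive KO and 292 to 378 in naive Ctrl libraries, against 34.8 to 44.4 in activated KO and 7.64 to 8.81 in activated Ctrl. In plasma libraries they summed to 5.8 to 51.7 in KO and 1.69 to 2.1 in Ctrl. In activated KO most of the sum was Car2, at 21.7, 22.6 and 15, and Hbb-bs, at 22.6, 14.5 and 19.6. Hba-a2 read only 0.227, 0 and 0.23 in activated KO, against 0.124, 0.424 and 0.852 in activated Ctrl. In plasma KO replicates 1 and 3 the sum was mainly Car2, at 7.5 and 5.17. The sums of these activated KO and plasma KO libraries are not read as erythroid RNA. Plasma KO replicate 4 stood out, with 18.5 for Hba-a2 and 26.4 for Hbb-bs. The 4 measured of 5 platelet markers summed to 46.3 to 75.5 in naive KO and 47.3 to 110 in naive Ctrl libraries, and to at most 3.32 in every activated or plasma library. The 4 measured of 9 T cell markers summed to 265 to 266 in naive KO and 200 to 248 in naive Ctrl libraries, against 87.6 to 115 in activated KO and 119 to 149 in activated Ctrl. Most of this sum was Cd2, with 243, 246 and 236 in naive KO and 188, 214 and 178 in naive Ctrl. Lck had 21.2, 15.8 and 27.1 in naive KO, but Cd3e only 0.35, 1.24 and 0.726. Cd3e was higher in plasma KO, at 7.13, 8.69 and 10.1. The T cell sum therefore mainly follows a single gene and is not read as T cell RNA. The 7 measured of 9 monocyte or macrophage markers summed to 65.3 to 136 in naive KO and 105 to 112 in naive Ctrl. They summed to 26.4 to 57.9 in activated KO, 31.7 to 35.7 in activated Ctrl, 20.6 to 51.9 in plasma KO and 15.5 to 28.1 in plasma Ctrl. Itgam went the other way, at 20.7, 15.4 and 15 in activated Ctrl against 1.74, 2.67 and 2.98 in naive Ctrl, and Cd68 overlapped between these groups. The part of other blood cells in the comparisons with naive libraries, or between plasma KO and plasma Ctrl, was not tested.

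The 84 genes were among the most abundant in every group but were not expressed alike. Their median level over all libraries was 347 scaled RPKM, against 8.13 for all genes, and 32 of them stood among the 100 highest genes. The highest were Rpl32, Rpl13 and Rps14. Rpl32 had 1189, 1356 and 1164 scaled RPKM in plasma KO libraries and 1182, 1293 and 1139.8 in plasma Ctrl. The lowest were the copies Rps4l and Rpl32l and the coding gene Rpl22. Rpl22, a large subunit protein dispensable for most translation in mice but needed for T cell development, had only 19.8, 25.0 and 19.3 scaled RPKM in plasma KO libraries and 20.9, 23.7 and 16.3 in plasma Ctrl. The highest member, Rpl32, and the lowest, the processed copy Rps4l, differed 165-fold, with means of 1275.8 and 7.73. The mean of Rpl22 was 23.7. Across the 84 genes the mean log2 level went with log2 transcript length (Pearson's r -0.28, Spearman's rho -0.23, with no test).

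Most members varied little between groups. The ratio of the highest to the lowest group mean had a median of 1.45 over the 84 genes, and it passed 2 for 12 of them. Rps27l led with a ratio of 7.68, followed by Rps4l (4.41), Rps27 (4.02), Rpl36al (3.12) and Rpl10 (2.79). The highest group mean was in naive cells for 58 members, in activated cells for 15 and in plasma cells for 11. The spread within a group was small: the median SD over members on the log2 scale was 0.14 in naive KO, 0.13 in naive Ctrl, 0.09 in activated KO, 0.07 in activated Ctrl, 0.08 in plasma KO and 0.12 in plasma Ctrl.

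**Figure D1:**
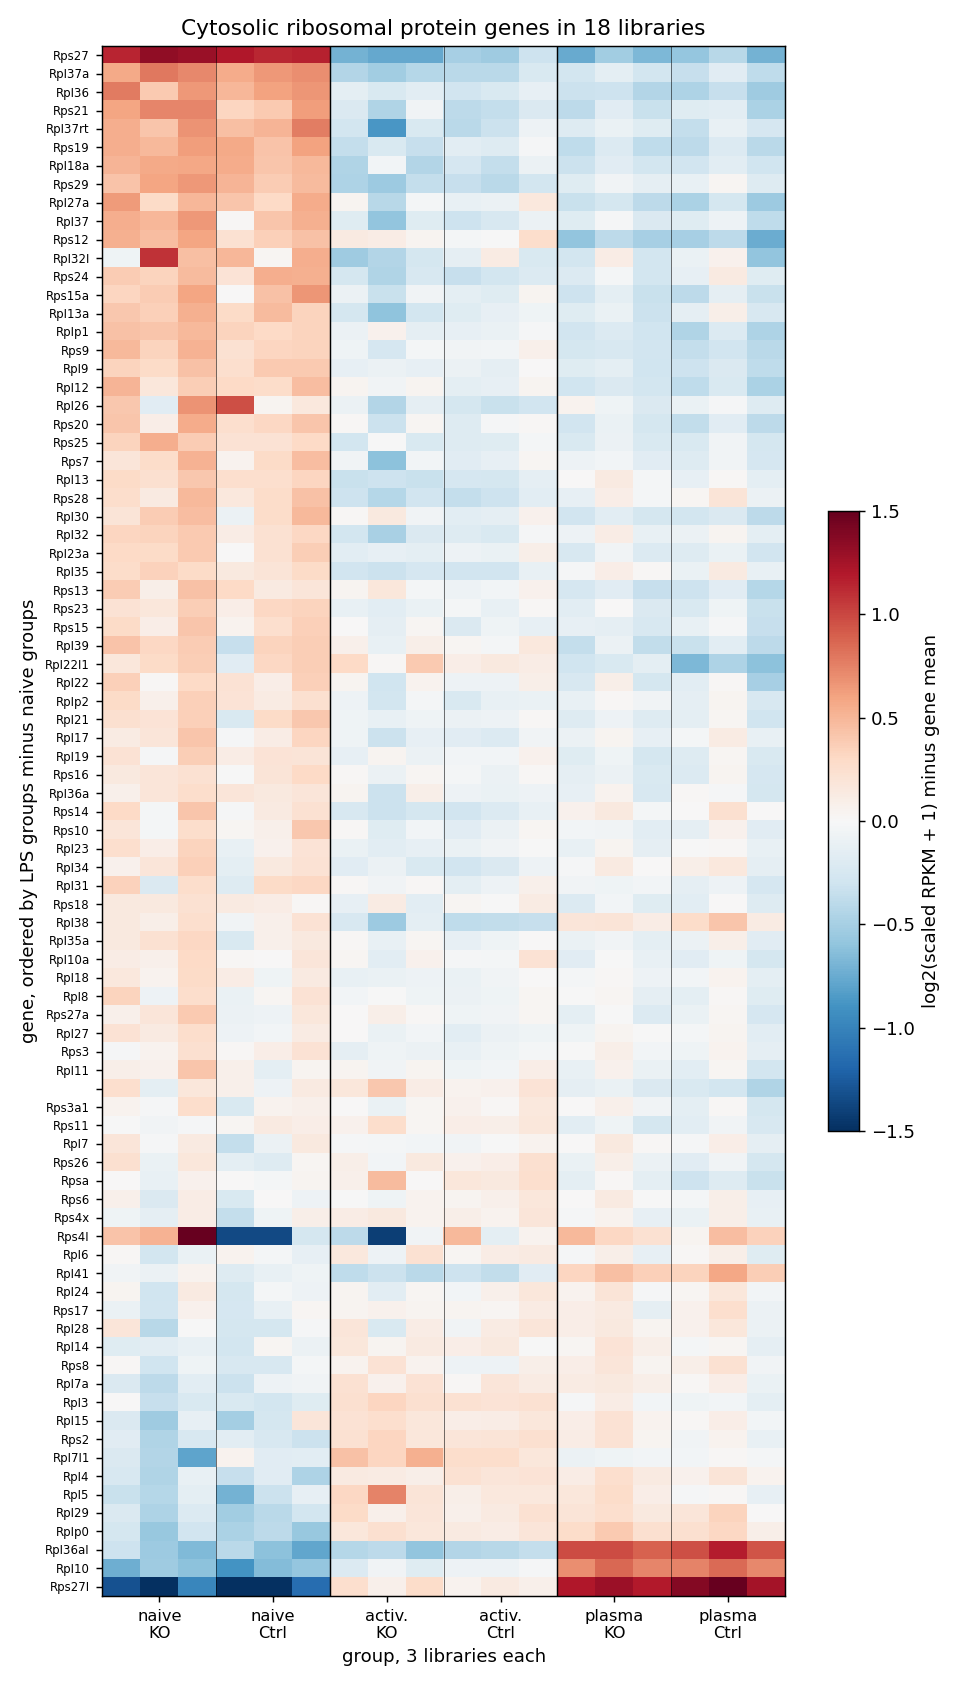
Level of each of the 84 ribosomal protein genes (one line each, 1 of them without a name) in the 18 libraries (columns, 3 per group), as log2(scaled RPKM + 1) minus the gene's mean over libraries (colours end at 1.5 either way), with genes ordered by the activated and plasma groups minus the naive groups. Rps27 at the top is high in the 6 naive libraries, Rps27l and Rpl10 at the bottom are low there, and most genes between change little.

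Activated B cells were compared with naive B cells within Ctrl to see how the family differed between these samples. Of the 84 members, 13 rose and 36 fell in activated cells, 15.5% and 42.9%, where 19.0% and 39.4% of all 12782 tested genes did (limma on log2(scaled RPKM + 1), Benjamini-Hochberg adjusted p under 0.05 over all tested genes). The median log2 change was -0.19 over members and -0.29 over all genes with this scaling. After quantile normalization the medians were -0.20 and -0.06, so whether the members fell more or less than other genes turns on the scaling. Measured against the family's own median in the same library, 23 members rose and 31 fell (20.7% and 33.8% of all genes). The erythroid, platelet and monocyte or macrophage sums given above were higher in the naive libraries of this comparison, as was the T cell sum, most of which was Cd2. Of the large subunit genes 9 rose and 21 fell, and of the small subunit genes 4 rose and 15 fell.

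The sharpest fall in activated Ctrl cells was that of Rps27. It had 499.8, 487 and 570.4 scaled RPKM in activated Ctrl libraries, against 1628, 1548 and 1569.7 in naive Ctrl (log2 change -1.61, SE 0.09, adjusted p = 1.5e-10, limma). The groups lie far apart, with no activated library near a naive one. Rpl37a, another zinc-binding protein, of the large subunit, averaged 602 ± 43.3 in activated Ctrl and 1188 ± 57.6 in naive Ctrl libraries (SD, n = 3 each; log2 change -0.98, SE 0.08, adjusted p = 2.7e-08, limma). Rps29, a zinc-binding small subunit protein, averaged 661 ± 30.4 in activated Ctrl and 1147 ± 54.1 in naive Ctrl (log2 change -0.79, limma adjusted p = 3.6e-07). Rpl36 of the large subunit (log2 change -0.80) also fell in activated Ctrl cells, as did Rps21 (-0.77) and Rps19 (-0.66), the gene most often mutated in Diamond-Blackfan anaemia in humans. Rps21 and Rps19 were picked after their values were seen.

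Against this fall, 13 members rose in activated Ctrl cells. Rps27l had 288, 303 and 292 scaled RPKM in activated Ctrl libraries, against 61.4, 94.5 and 125 in naive Ctrl (log2 change 1.70, SE 0.17, adjusted p = 4.0e-07, limma). The lowest activated library was above the highest naive one, although the naive libraries spread about 2-fold among themselves. Rpl10, whose product joins the large subunit late in its assembly in yeast, had 664, 661 and 692 in activated Ctrl, against 374, 444 and 465 in naive Ctrl (log2 change 0.66, SE 0.09, adjusted p = 6.5e-06, limma). Rplp0, the base of the stalk that recruits elongation factors, averaged 820.4 ± 22.4 in activated Ctrl and 533 ± 32.6 in naive Ctrl (log2 change 0.62, SE 0.09, adjusted p = 1.2e-05, limma). Rpl3, near the peptidyl transferase centre, averaged 397 ± 3.39 in activated Ctrl and 289.8 ± 10.3 in naive Ctrl (log2 change 0.45, limma adjusted p = 2.0e-04). Rpl4 and Rpl29, picked after their values were seen, rose by 0.53 and 0.55 on the log2 scale.

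In the KO libraries the same step, activated against naive, moved 12 members up (21.3% of all genes) and 47 down (34.4% of all genes), or 22 and 29 relative to the family's median (25.9% and 21.6% of all genes). Rps27 averaged 420.5 ± 9.98 scaled RPKM in activated KO and 1691 ± 112 in naive KO libraries (log2 change -2.00, SE 0.09, adjusted p = 6.4e-12, limma). Its fall differed from that in Ctrl by -0.39 on the log2 scale (SE 0.12), which was not called (limma adjusted p = 0.101). Rps27l rose in KO as well (log2 change 1.47, SE 0.17, adjusted p = 1.7e-06, limma). Rpl7l1, a paralog of Rpl7, had 66.5, 60.9 and 70.8 in activated KO, against 41.6, 35.6 and 27.7 in naive KO (log2 change 0.92, SE 0.12, adjusted p = 8.3e-06, limma), and its step differed between genotypes by 0.59 (adjusted p = 0.084, limma, not called). The single member called for such a difference was Rps4l, where 2.63% of all genes were called.

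**Figure D2:**
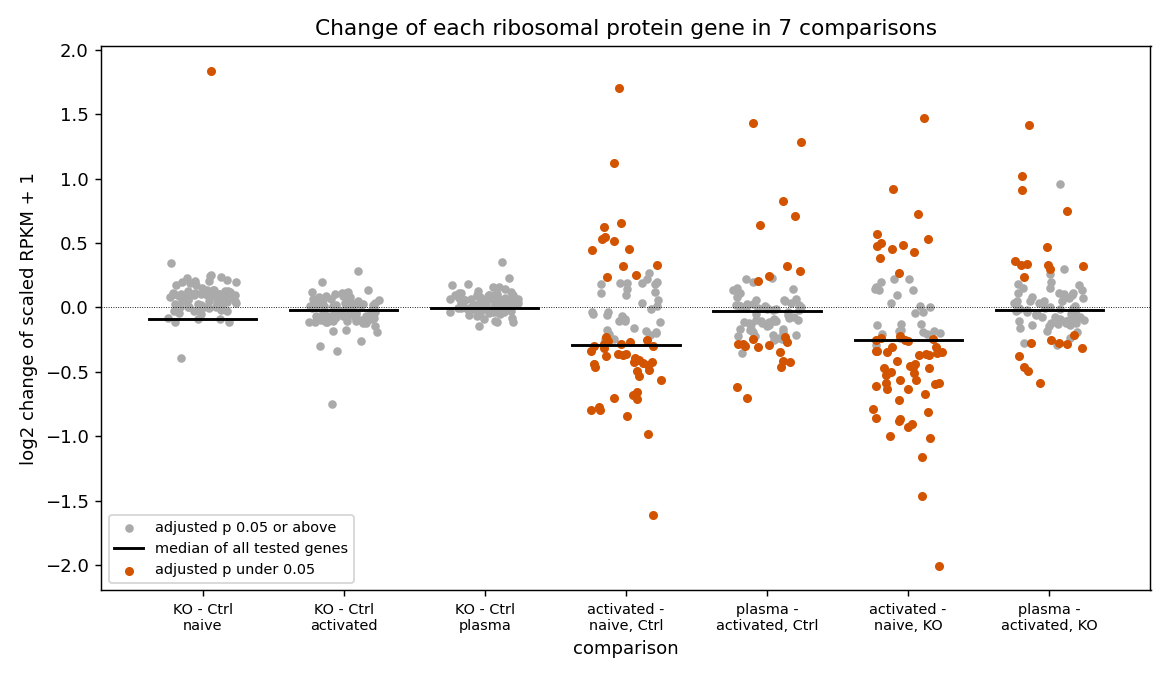
Log2 change of each of the 84 ribosomal protein genes (points) in 7 comparisons (x axis), the first-named group minus the second, and the median of all 12782 tested genes as a bar. Orange points have a limma adjusted p under 0.05. A single point is orange among the KO against Ctrl comparisons, the processed copy Rps4l in naive cells, while many are in the steps between cell types.

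Plasma cells were compared with activated B cells, both sorted after LPS, to see which members moved with plasma cell differentiation. In Ctrl 9 members rose (16.1% of all genes) and 14 fell (16.8% of all genes). This split depends on how libraries are scaled: it was 5 higher and 40 lower with RPKM as deposited (12.1% and 23.4% of all genes), and 5 higher and 59 lower after quantile normalization (14.5% and 15.2% of all genes). The members called lower were thus 16.7% of the family with median-of-ratios scaling, near the share of all genes, but 47.6% and 70.2% with the others, above it. The median log2 change over members was -0.09 with median-of-ratios scaling, -0.30 with RPKM as deposited and -0.36 after quantile normalization, and over all genes -0.03, -0.14 and 0.02. The members' median was below 0 with each scaling, but its size and the number of members called turn on the scaling. Measured against the median of the family in the same library, which takes out a factor common to a library, 12 members rose and 10 fell (16.5% and 13.8% of all genes). Single libraries also moved the counts in Ctrl: 5 rose without activated Ctrl replicate 1 or 3 or plasma Ctrl replicate 3, and 8 fell without activated Ctrl replicate 4 or plasma Ctrl replicate 1 and 7 without plasma Ctrl replicate 4.

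The members that rose were few, and some rose a great deal. Rpl36al, a paralog of Rpl36a at the tRNA exit site, had 212, 246 and 209 scaled RPKM in plasma Ctrl libraries, against 79.3, 81.0 and 84.1 in activated Ctrl (log2 change 1.43, SE 0.11, adjusted p = 5.3e-09, limma). Every plasma library lies more than 2 times above the highest activated one. Rps27l rose further, with 719, 779 and 658 in plasma Ctrl, against 288, 303 and 292 in activated Ctrl (log2 change 1.28, SE 0.17, adjusted p = 9.2e-06, limma). Rpl10 had 1168, 1262 and 1153 in plasma Ctrl, against 664, 661 and 692 in activated Ctrl (log2 change 0.83, SE 0.09, adjusted p = 2.8e-07, limma). Both genes thus climbed at each step, and neither group overlapped the next.

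Rpl41 and Rpl38, among the smallest ribosomal proteins, also rose in plasma cells. Rpl41 had 975, 1148 and 993 scaled RPKM in plasma Ctrl, against 623, 595 and 685 in activated Ctrl (log2 change 0.71, SE 0.08, adjusted p = 7.0e-07, limma). Rpl38, needed in mouse embryos for translation of a subset of Hox mRNAs and picked here after its values were seen, averaged 537 ± 53.7 in plasma Ctrl and 343 ± 4.51 in activated Ctrl (log2 change 0.64, SE 0.10, adjusted p = 5.0e-05, limma). Its naive Ctrl level, 469 ± 43.7, was not called different from plasma Ctrl (adjusted p = 0.096, limma).

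Rpl22l1, the paralog of Rpl22, fell most. It had 119, 138 and 124 scaled RPKM in plasma Ctrl, against 203, 211 and 206 in activated Ctrl (log2 change -0.70, SE 0.12, adjusted p = 1.8e-04, limma). Rps12, a protein of the small subunit's head, had 56.6, 61.0 and 47.5 in plasma Ctrl, against 78.7, 79.8 and 96.7 in activated Ctrl (log2 change -0.62, SE 0.11, adjusted p = 1.6e-04, limma). Rpsa, which also serves as a laminin receptor, averaged 222 ± 11.9 in plasma Ctrl and 306 ± 12.3 in activated Ctrl (log2 change -0.46, limma adjusted p = 0.002). Rpl36al, Rpl10, Rpl41, Rpl22l1, Rps12 and Rpsa kept their direction and call in Ctrl with RPKM as deposited and after quantile normalization, but the rises of Rpl10 and Rpl41 shrank to 0.45 and 0.36 on the log2 scale after quantile normalization. The rise of Rpl38 in Ctrl shrank to 0.42 with RPKM as deposited and 0.26 after quantile normalization (limma adjusted p = 0.0394), and its rise in KO, 0.47, was not called after quantile normalization (0.19, adjusted p = 0.128).

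In KO libraries 12 members rose (15.7% of all genes) and 10 fell (17.4% of all genes) in plasma against activated cells, and 6 and 25 did with RPKM as deposited (13.1% and 22.7% of all genes) and 4 and 49 after quantile normalization (14.1% and 15.7% of all genes). Relative to the family's median 14 rose and 8 fell (15.6% and 15.2% of all genes). Without plasma KO replicate 4, activated KO replicate 3 or plasma KO replicate 1 the number that fell was 4, 5 and 6 in turn. Rpl36al (log2 change 1.42, SE 0.11, adjusted p = 6.2e-09, limma), Rpl10 (log2 change 0.91, adjusted p = 7.1e-08) and Rpl41 (0.75, adjusted p = 3.6e-07) had the smallest adjusted p among those that rose, and Rps27l rose by 1.02 on the log2 scale (adjusted p = 1.2e-04, limma). Rps12 (-0.59, adjusted p = 2.9e-04), Rpl7l1 (-0.50, adjusted p = 0.004) and Rpl22l1 (-0.46, adjusted p = 0.007) fell. No member was called for a difference of the genotype effect between plasma and activated cells (0 of 84 in limma), where 0.156% of all genes were called. At an unadjusted p under 0.05 there was 1 member, with no share of all genes given at that threshold.

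Across the whole course, plasma against naive cells in Ctrl, 11 members rose (24.3% of all genes) and 45 fell (44.4% of all genes). With RPKM as deposited the split was 8 and 56 (20.7% and 48.8% of all genes), and after quantile normalization 7 and 69 (26.8% and 26.8% of all genes). Relative to the family's median 22 rose and 29 fell (27.5% and 38% of all genes). Rps27l rose most, to 719 ± 60.8 scaled RPKM in plasma Ctrl, against 93.6 ± 31.7 in naive Ctrl (log2 change 2.98, SE 0.17, adjusted p = 4.7e-11, limma). Rpl36 averaged 407 ± 26.7 in plasma Ctrl and 835 ± 44.7 in naive Ctrl (log2 change -1.03, SE 0.09, adjusted p = 1.3e-08, limma).

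The pair Rps27l and Rps27 changed places over the course. Rps27l made up 6.62, 5.15 and 7.47% of the summed scaled RPKM of the pair in naive KO libraries and 3.63, 5.76 and 7.36% in naive Ctrl. It made up 43.2, 41.4 and 44.8% in activated KO and 36.6, 38.4 and 33.9% in activated Ctrl. It made up 60.5, 57.8 and 58.7% in plasma KO and 60.2, 59.5 and 60.3% in plasma Ctrl. The 3 cell types do not overlap in this share, and in activated cells KO and Ctrl do not either; the share was not tested. Although the 2 coding sequences share no long run, 98.7% of the 50-base words of the Rps27 transcript also occur in transcripts of other genes, chiefly Rps27rt, against 22.4% for Rps27l. The sources used here do not give how reads that match several genes were counted.

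**Figure D3:**
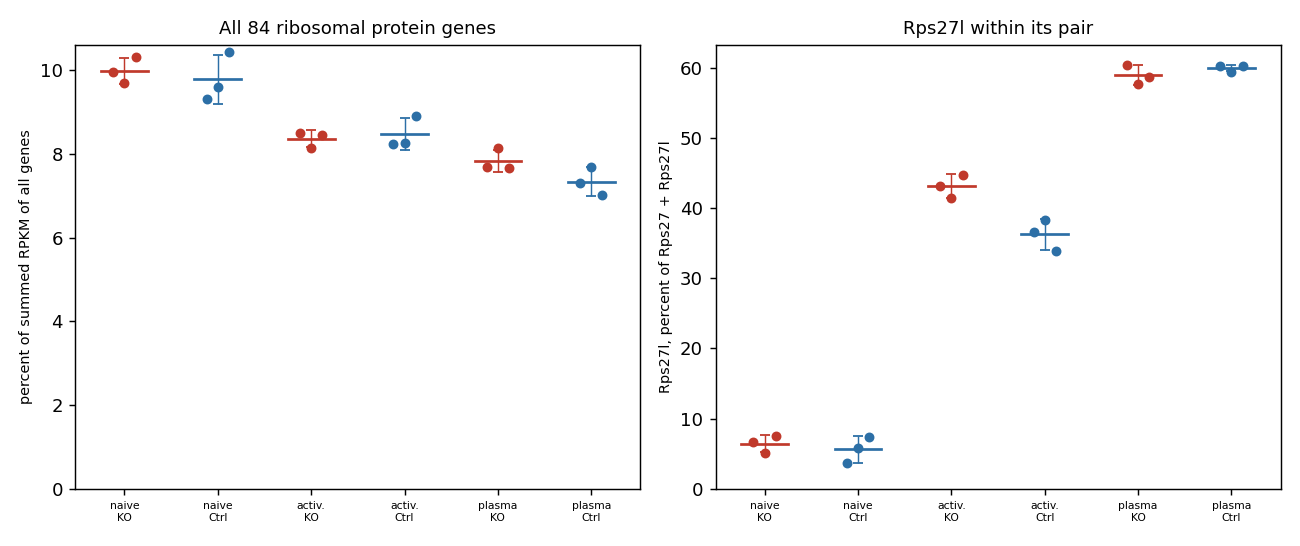
Left, the summed RPKM of the 84 ribosomal protein genes as a percent of all genes in each library; right, Rps27l as a percent of Rps27 and Rps27l together. Points are libraries, bars and whiskers are means ± SD of 3 libraries, KO in red and Ctrl in blue; the left share is at least 9.31% in naive and at most 8.13% in plasma libraries, and the right share is at most 7.47% in naive and at least 57.8% in plasma libraries.

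The balance of Rpl36al and Rpl36a shifted mainly in plasma cells. Rpl36al made up 20.9% ± 3.15 of its pair in naive KO and 19.8% ± 2.02 in naive Ctrl libraries, 24.3% ± 3.99 in activated KO and 25.2% ± 0.574 in activated Ctrl, and 46.8% ± 1.79 in plasma KO and 48.0% ± 2.48 in plasma Ctrl (SD, n = 3 each). Rpl36a itself had 258, 253 and 212 scaled RPKM in plasma Ctrl, against 243, 239 and 243 in activated Ctrl, and was not called (log2 change -0.01, SE 0.11, adjusted p = 0.986, limma). The 2 coding sequences agree at 279 of 318 bases, and 63.1% of the exon bases of Rpl36al also belong to Gm49383, a gene on the same strand, so the reads of these 2 cannot be told apart there. Rpl22l1 was by far the higher gene of its pair throughout, with 85.1% to 91.2% of the pair in each library. Rpl7l1 stayed low beside Rpl7, at most 11.3% of their summed level in a library. Whether its product takes the place of Rpl7 in a ribosome cannot be read from these levels.

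**Figure D4:**
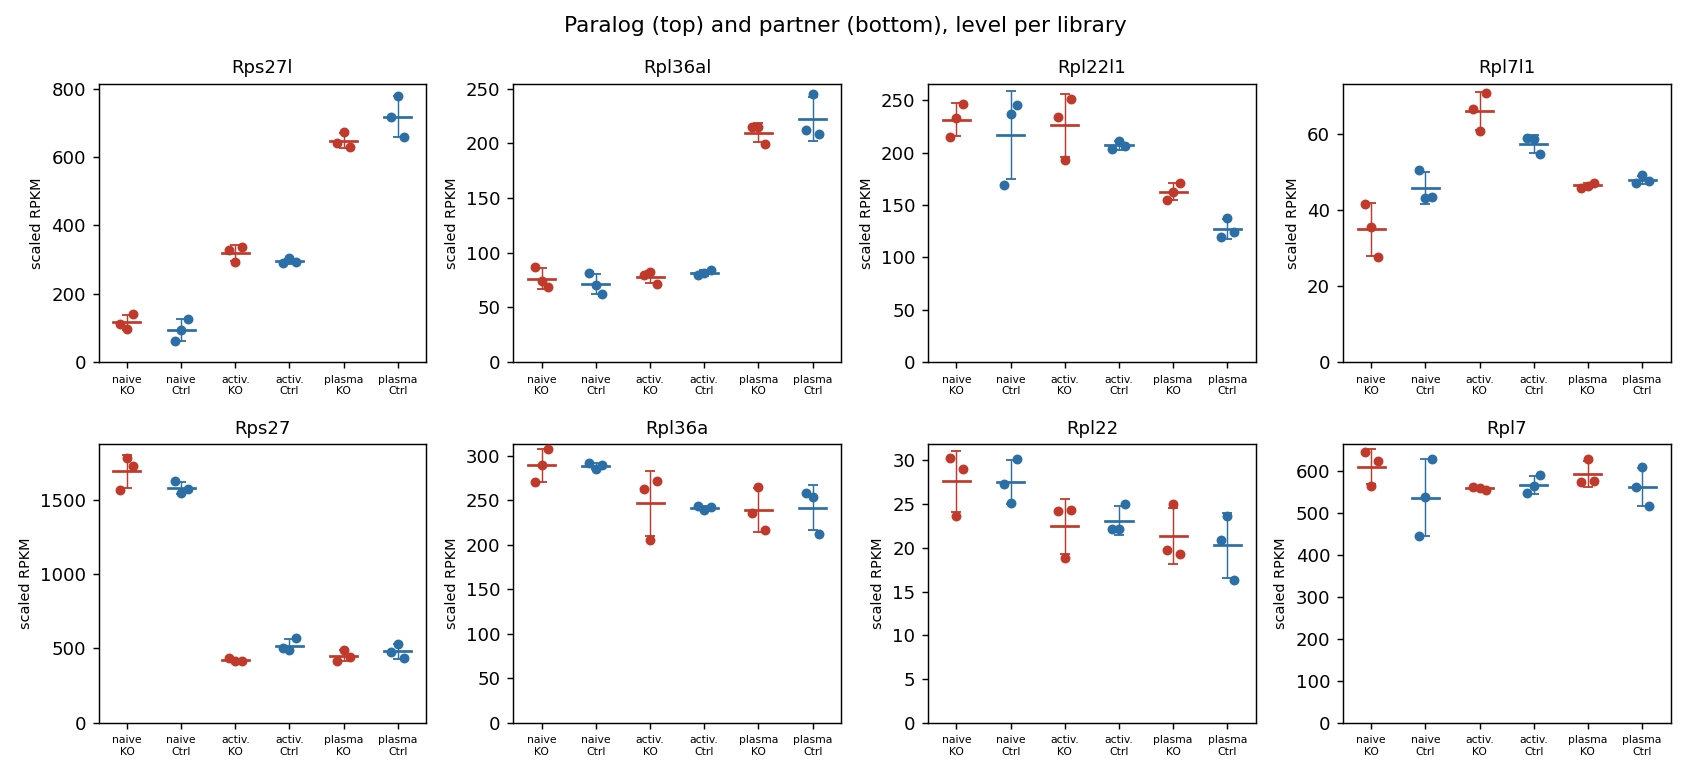
Scaled RPKM of 4 paralogs (top) and their partner genes (bottom) in each library, KO in red and Ctrl in blue, with means ± SD of 3 libraries; the y axes differ. Rps27l rises while Rps27 drops after the naive stage, Rpl36al rises in plasma cells, and Rpl22l1 is lowest in plasma Ctrl.

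Taken as a sum, the members held 9.99% ± 0.312 of all RPKM in naive KO and 9.78% ± 0.585 in naive Ctrl libraries, 8.36% ± 0.199 in activated KO and 8.47% ± 0.383 in activated Ctrl, and 7.82% ± 0.266 in plasma KO and 7.34% ± 0.337 in plasma Ctrl (SD, n = 3 each). The naive libraries are above all others, and activated and plasma libraries of Ctrl do not overlap. On scaled RPKM the members' sum was instead 32638 ± 1728 in plasma KO and 31937 ± 2486 in plasma Ctrl, against 30918 ± 259 in activated KO and 31566 ± 1467 in activated Ctrl, so these sums were not lower in plasma than in activated cells: the libraries overlap in Ctrl and do not in KO. RPKM is a share of the library, so a group of very abundant genes can lower the share of the rest. Without the 50 highest other genes the members' shares were 9.17% ± 0.346 in plasma KO and 8.66% ± 0.407 in plasma Ctrl. They were 9.40% ± 0.118 in activated KO and 9.69% ± 0.483 in activated Ctrl. The part of very abundant genes in the lower plasma shares was not tested. Fewer cells of a type and less RNA per cell cannot be told apart in such bulk values, nor does a share say how many ribosomal protein mRNAs a cell holds. The small subunit genes made up 38.6% ± 0.220 of the members' sum in plasma KO and 39.1% ± 0.230 in plasma Ctrl, and 40.2% to 42.0% in every activated or naive library.

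KO was compared with Ctrl within each of the 3 cell types, and 1 member in all was called, the processed copy Rps4l. Of the 81 coding members 0 were called in each cell type. In naive cells 1 member rose and 0 fell in KO (2.10% and 5.14% of all genes, 5 members at an unadjusted p under 0.05). In activated cells 0 members were called (limma; 3 at an unadjusted p under 0.05), where 0.430% of all genes rose and 1.36% fell. In plasma cells 0 members were called (limma; 1 at an unadjusted p under 0.05), where 0.446% rose and 0.172% fell. The median log2 change of the members, KO against Ctrl, was 0.08 in naive, -0.03 in activated and 0.04 in plasma cells, and that of all genes was -0.09, -0.02 and 0.00. After quantile normalization the members' median was -0.02 in naive, 0.01 in activated and 0.11 in plasma cells, so its sign in naive and activated cells is not fixed. Relative to the family's median 1, 0 and 0 members were called (limma; 5, 6 and 1 at an unadjusted p under 0.05), against 7.17%, 1.42% and 0.571% of all genes. The shares of all genes given here are at the adjusted p. The unadjusted counts of members have no such share beside them and are not read as results. Leaving out 1 naive library gave up to 2 members higher (without KO replicate 2 or Ctrl replicate 3) and up to 1 lower (without KO replicate 1 or 2 or Ctrl replicate 2).

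The member called in naive cells was Rps4l, a processed copy of an Rps4 gene at low level on chromosome 6 from 148354656 to 148355598. It had 9.35, 10.1 and 22.2 scaled RPKM in naive KO libraries, against 2.03, 2.02 and 5.41 in naive Ctrl (log2 change 1.84, SE 0.36, adjusted p = 0.007, limma). The groups do not overlap, though the highest naive KO library is over 2 times the next. With a fit on the naive libraries alone the adjusted p was 0.458, and with library weights 0.477; in both of those fits 0 of all 12782 genes were called. Rps4l had 4.90, 1.90 and 6.47 in activated KO, against 9.81, 5.99 and 7.02 in activated Ctrl, the other way and not called (adjusted p = 0.511, limma). Rps4x, the coding Rps4 gene on the X chromosome, averaged 394 ± 36.2 in naive KO and 374 ± 56.9 in naive Ctrl.

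Rps27 and Rpl22l1 were called between genotypes in some fits and not in the fit of all libraries. Rps27 in activated cells had 432, 414 and 415 scaled RPKM in KO, against 499.8, 487 and 570.4 in Ctrl, with no overlap (log2 change -0.30, SE 0.09, adjusted p = 0.105, limma). It was called in a fit of the activated libraries alone (adjusted p = 0.0435) and in a fit without the naive libraries (adjusted p = 0.0353), the second added after the data were seen, and with library weights (adjusted p = 0.00464). The activated libraries also differed in cell type markers: the 8 B cell markers summed to 2610 to 2740 scaled RPKM in activated KO, against 3440 to 3890 in activated Ctrl, and the 8 plasma cell markers to 940 to 1140 in activated KO, against 1730 to 1920 in activated Ctrl. In plasma cells the sums were 993 to 1140 in KO against 1340 to 1680 in Ctrl for B cell markers, and 12200 to 13500 in KO against 13500 to 15100 in Ctrl for plasma cell markers. The part of these differences in the genotype comparisons was not tested. Rpl22l1 in plasma cells had 155, 162 and 171 in KO, against 119, 138 and 124 in Ctrl, with no overlap (log2 change 0.36, SE 0.12, adjusted p = 0.416, limma), and it too was called in the fit of the plasma libraries alone (adjusted p = 0.0232) without the naive libraries (adjusted p = 0.029) and with library weights (adjusted p = 0.00105). The naive libraries vary more than the others over all genes (median SD 0.39 in KO and 0.37 in Ctrl, against 0.13 in activated KO and 0.13 in activated Ctrl on the log2 scale). With the activated libraries alone 0 members rose and 1 fell, where 5.26% of all genes rose and 6.02% fell, and with the plasma libraries alone 1 rose and 0 fell, where 2.39% of all genes rose and 2.73% fell. For Rps27 the difference of the genotype effect between activated and naive cells was -0.39 (adjusted p = 0.101, limma), and for Rpl22l1 between plasma and activated cells 0.24 (adjusted p = 1.000).

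**Figure D5:**
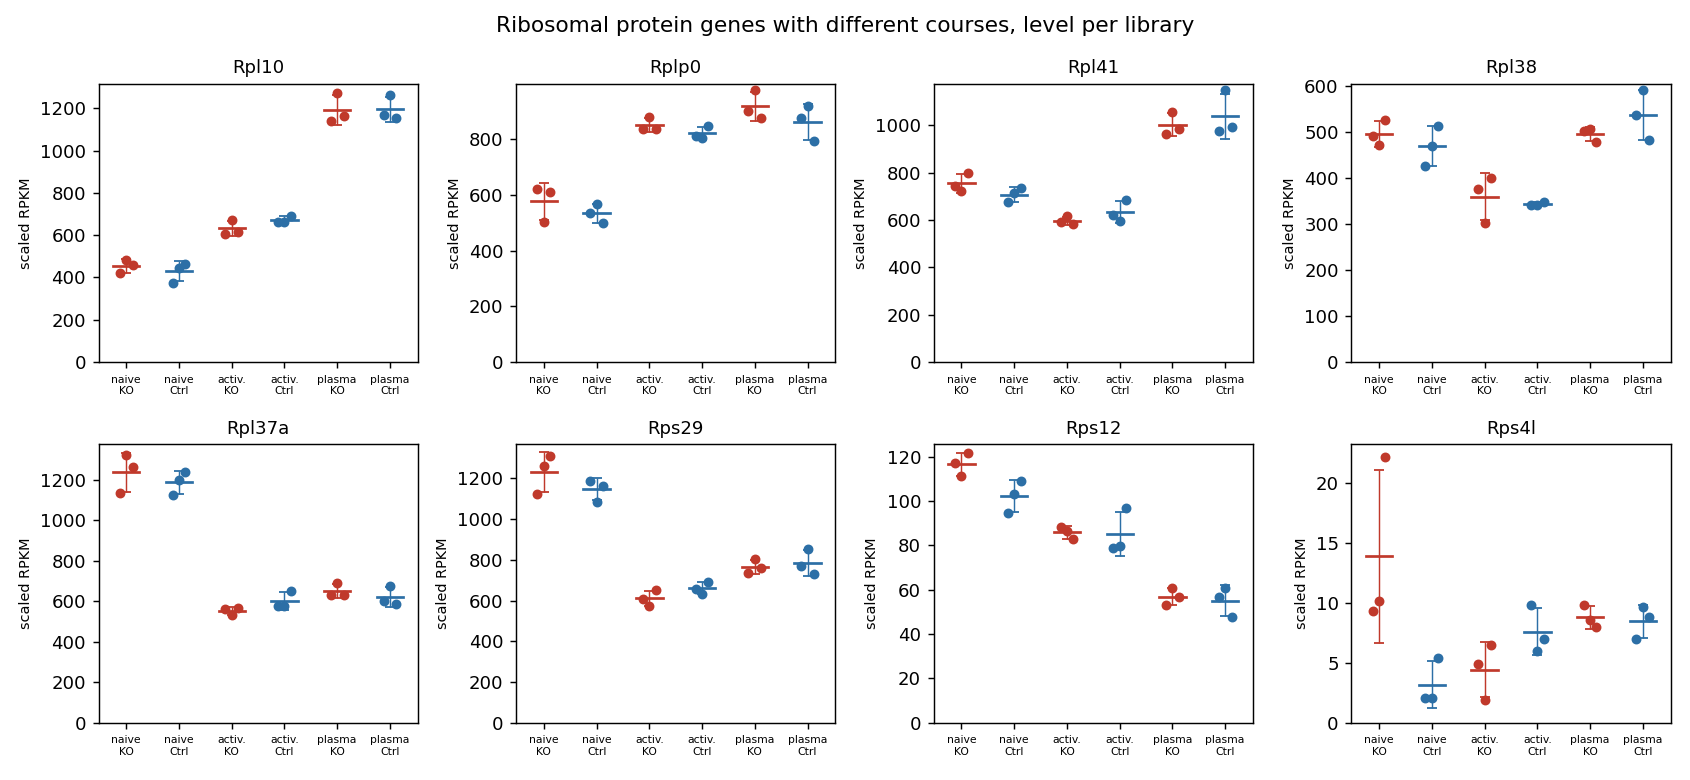
Scaled RPKM of 8 ribosomal protein genes in each library, KO in red and Ctrl in blue, with means ± SD of 3 libraries; the y axes differ. Rpl10 climbs at each stage, Rplp0 rises after the naive stage, Rpl41 and Rpl38 have their highest means in plasma Ctrl, Rpl37a and Rps29 are highest in naive cells, Rps12 is lowest in plasma cells, and Rps4l is low and scattered.

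Members with known roles beyond the ribosome were followed by name. Rpl5 and Rpl11 bind the 5S ribosomal RNA and, outside the ribosome, the ubiquitin ligase Mdm2 that holds p53 down. Rpl5 had 225, 303 and 207 scaled RPKM in activated KO, against 192, 201 and 201 in activated Ctrl (log2 change 0.29, SE 0.14, adjusted p = 0.516, limma), where 1 KO library is well above the others. It rose in activated Ctrl against naive Ctrl (log2 change 0.52, SE 0.14, adjusted p = 0.004, limma), a call lost after quantile normalization (adjusted p = 0.0676). Rpl11 was not called in any of these steps, with 379.8 ± 23.7 in activated Ctrl and 378 ± 29.5 in naive Ctrl. Of the exon bases of Rpl5 46.6% overlap Fam69a on the opposite strand, and without strand information their reads cannot be told apart there.

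Rps6, the substrate of the S6 kinases below mTORC1, averaged 339.6 ± 25.2 scaled RPKM in plasma Ctrl and 322 ± 27.0 in naive Ctrl (adjusted p = 0.470, limma). Rps27a, made as a fusion to ubiquitin, averaged 306 ± 29.0 in plasma Ctrl and 331 ± 35.3 in naive Ctrl (adjusted p = 0.326). The stalk proteins parted: against the rise of Rplp0, Rplp1 averaged 570.2 ± 21.7 in activated Ctrl and 755 ± 11.6 in naive Ctrl (log2 change -0.40, limma adjusted p = 2.6e-04), and Rplp2 averaged 552 ± 27.4 in activated Ctrl and 697 ± 27.8 in naive Ctrl (log2 change -0.34, adjusted p = 0.005). Fau, a small subunit protein made as a fusion to a ubiquitin-like protein, whose symbol the rule leaves out, averaged 187 ± 18.8 in activated Ctrl and 362 ± 25.0 in naive Ctrl (log2 change -0.95, SE 0.09, adjusted p = 1.4e-07, limma).

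Most other genes of the translation machinery that changed between naive and activated Ctrl cells rose. In activated against naive Ctrl cells 19.0% of all genes were called higher and 39.4% lower. Of 20 other TOP mRNA genes 15 rose and 3 fell there, with a median log2 change of 0.51. Npm1, a nucleolar chaperone, had 316, 342 and 313 scaled RPKM in activated Ctrl, against 108, 149.7 and 173 in naive Ctrl (limma adjusted p = 1.1e-06). Of 31 initiation factor genes 22 rose and 2 fell, with a median of 0.63; Eif3l rose (1.04) and Eif1, which guards start codon choice, fell (-1.32, limma adjusted p = 1.2e-09). The 77 mitochondrial ribosomal protein genes gave 37 higher and 1 lower with a median of 0.41. The 5 pseudogenes with a -ps suffix all fell, with a median of -1.16. These medians kept their sign with both other scalings.

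In plasma against activated Ctrl cells, where 16.1% of all genes rose and 16.8% fell, 2 of the 20 other TOP genes rose and 9 fell, among them Nap1l1 (-1.65, limma adjusted p = 5.1e-10). Of the initiation factors 10 rose and 1 fell, led by Eif5 (1.33, adjusted p = 2.1e-08), and of the mitochondrial genes 12 rose and 13 fell. The median of the initiation factors was 0.18 and changed sign with RPKM as deposited (-0.04) and after quantile normalization (-0.01), while that of the other TOP genes was -0.20, -0.42 and -0.49. Of 15 tested mTORC1 and Myc genes 5 rose and 2 fell, and Myc, a driver of ribosomal protein genes, averaged 10.2 ± 1.21 in plasma Ctrl and 31.2 ± 0.831 in activated Ctrl (adjusted p = 3.1e-08, limma). Of 12 ribosomal protein chaperone and assembly genes 1 rose and 3 fell, of 13 ribosome rescue and dormancy genes 5 rose and 2 fell, and of the 3 p53 and Mdm2 genes Mdm2 rose and Trp53 fell.

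Between genotypes the lists gave few calls, with 0 of the 20 other TOP genes and 0 of the 31 initiation factors called in any cell type by limma. Of all genes 2.1% rose and 5.14% fell in naive KO. In activated KO 0.43% rose and 1.36% fell, and in plasma KO 0.446% rose and 0.172% fell. In activated cells Rpf2, which in yeast brings the 5S particle to the large subunit, averaged 65.4 ± 8.38 in KO and 36.5 ± 6.47 in Ctrl (log2 change 0.83, SE 0.17, adjusted p = 0.011, limma). In naive cells its partner Rrs1 averaged 30.4 ± 9.69 in KO and 16.6 ± 1.87 in Ctrl (log2 change 0.79, SE 0.18, adjusted p = 0.015, limma), while Mtor, the kinase of mTORC1, averaged 4.81 ± 1.13 in KO and 10.2 ± 3.30 in Ctrl (log2 change -0.92, adjusted p = 0.025) and Habp4 had 4.60, 13.7 and 9.86 in KO and 15.6, 23.6 and 23.7 in Ctrl (log2 change -1.17, adjusted p = 0.023). Of the 77 mitochondrial ribosomal protein genes 2 rose and 1 fell in naive KO. These naive calls were lost, as all were, with the naive libraries alone and with library weights. In plasma cells Myc averaged 17.8 ± 1.27 in KO and 10.2 ± 1.21 in Ctrl (log2 change 0.75, SE 0.13, adjusted p = 0.008, limma), beside the 0 ribosomal protein genes called there.

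The median member shares 53.3% of its 50-base words with transcripts of other genes, and 45 of 84 share over 50%, so their levels may depend on how such reads were counted, which was not tested. In activated against naive Ctrl cells 19.0% of all genes rose and 39.4% fell. Of the 39 members at or under 50% 7 rose and 18 fell there, against 6 and 18 of the 45 others. The change at that step went with transcript length across the 84 genes (Pearson's r 0.26, Spearman's rho 0.32, a description across genes that share libraries, with no test), and the 42 members with shorter transcripts gave 3 higher and 23 lower, against 10 and 13 for the 42 longer ones. Over all other tested genes the relation to length was -0.07 and -0.11. In plasma against activated Ctrl cells the members gave -0.28 and -0.26. Between plasma KO and plasma Ctrl they were 0.30 and 0.38.

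Promoters were read for the 63 members found in RefSeq's promoter table (GRCm38.p6, 250 bases before to 50 after the start). The letters CTTTCC, a pyrimidine start of TOP genes, stood on the coding strand within 10 bases before to 12 after the start in 8 of the 63 (12.7%), against 1.08% of all 27025 genes. The letters CCGGAAG, as ETS factors such as GABP bind, stood on either strand anywhere in 25 of the 63 (39.7%), against 9.93% of all genes, and in 5 promoters the 2 kinds of match overlap. The pair with opposite courses is shown from 60 bases before to 20 after the start, with these letters in capitals where they occur: Rps27 at chr3:90213629-90213708 on the reverse strand and Rps27l at chr9:66946026-66946105 on the forward strand. A match is a description of these letters only.
Rps27: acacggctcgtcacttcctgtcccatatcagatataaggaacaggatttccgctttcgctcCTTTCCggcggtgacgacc
Rps27l: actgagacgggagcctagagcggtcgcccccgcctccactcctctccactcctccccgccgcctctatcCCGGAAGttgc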

How the data were processed

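The authors deposited a table of RPKM for 12960 genes detected in these libraries. The submitters' processing notes name the aligner STAR and the build mm10; the sources used here do not give the counting tool, its treatment of reads that match several genes or the read totals. RPKM are not counts, and dividing low values by their smallest step gave whole reads within 0.1 read for 34.1% to 43.3% of values in a library, so no counts were recovered and no count model was run.

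RPKM were scaled by median-of-ratios factors over the 8012 genes above 1 RPKM in every library. A gene was tested if its mean reached 1 scaled RPKM in at least 1 group (12782 genes). limma 3.58.1 (R 4.3.3) fitted group means to log2(scaled RPKM + 1) over all 18 libraries, with a trended prior and two-sided moderated tests, and p-values were adjusted by Benjamini-Hochberg over all tested genes and called under 0.05. Fold changes are on that scale and understate changes of low genes. A second fit used values minus the median over members in each library. The fit was tested on simulated data. No 2 libraries held identical values (0 pairs). Symbols of 20 genes were restored from Entrez identifiers, and 12946 identifiers matched RefSeq. Coordinates, coding sequences and 50-base words came from GENCODE on GRCm38, the build mm10 stands for.

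Members and lists were chosen with earlier results of these data known. Named genes were up to 3 called members per direction and comparison with the smallest adjusted p, the paralogs and their partners, the 3 highest and 3 lowest members, the stalk proteins, Rpl5, Rpl11, Rps6, Rps27a, Fau and Ehmt2, and up to 2 called genes per direction of each other list; some genes that the rule names are not reported here. Alternatives covered the pseudocount, scaling, filter, library weights, the libraries in the fit, a replicate block and leaving out each library.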

Additional observations from a re-analysis of the deposited data

Results flagged for a closer look

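The effect of genotype on Rps4l, KO against Ctrl, differed between activated and naive B cells by -2.586 on the log2 scale (SE 0.51, limma adjusted p = 0.013), a test of the difference itself. Rps4l was higher in naive KO than naive Ctrl in every library, at 9.35, 10.1 and 22.2 scaled RPKM in KO against 2.03, 2.02 and 5.41 in Ctrl. In activated cells it had 4.90, 1.90 and 6.47 in KO against 9.81, 5.99 and 7.02 in Ctrl, where the groups overlap. In plasma cells it had 9.85, 8.55 and 8.01 in KO against 6.96, 9.66 and 8.82 in Ctrl. The difference was not called with library weights (adjusted p = 0.163) or in a fit of the compared libraries alone (adjusted p = 0.0825).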

How the results depend on the processing

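Of the named members' results, 886 comparisons with an alternative kept their direction and call and 6 lost the call, among them Rps4l in naive KO against Ctrl with library weights and with the compared libraries alone, on both scales. Of 430 comparisons of counts, sums and Ehmt2 values with an alternative, 370 did not change by this measure and 60 did. The cause of the changes below was not tested.

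With RPKM as deposited, the members higher and lower in plasma against activated cells were 5 and 40 in Ctrl and 6 and 25 in KO. With quantile normalization they were 5 and 59 in Ctrl and 4 and 49 in KO, and in plasma against naive Ctrl 7 and 69. With library weights they were: naive KO against Ctrl 0 higher, activated KO 2 higher and 3 lower, plasma KO 2 higher, plasma against activated 28 lower in Ctrl and 23 lower in KO, activated against naive KO 28 lower, and 0 for the difference of the genotype effect between activated and naive cells. Over all genes library weights called 8.89% higher and 10.2% lower in activated KO and 6.31% and 6.52% in plasma KO, above the members' 2.38% and 3.57% and 2.38% and 0. They called 29.5% of all genes lower in plasma against activated Ctrl, 31.4% in KO and 27.3% in activated against naive KO. The members' shares there were 33.3%, 27.4% and 33.3%. Relative to the family, library weights gave 0, 7 and 28 members in naive, activated and plasma KO against Ctrl and 47 in plasma against activated Ctrl. The weights did not converge in that fit. No share of all genes is given beside these family counts, so they are not read as a result about the family. With library weights Ehmt2 in plasma KO against Ctrl had a log2 change of -0.281 (limma adjusted p = 0.048). With the compared libraries alone the counts were 0 higher in naive KO, 1 lower in activated KO, 1 higher in plasma KO and 0 for the difference, and relative to the family 0, 1 and 1 and, in plasma against activated Ctrl, 34. The family counts of that fit have no share of all genes beside them either. Without the naive libraries, chosen after seeing the data, 1 was lower in activated KO, 1 higher in plasma KO and, relative to the family, 1 in activated KO. As a median over members in place of the sum, the log2 difference was 0.119 in naive KO against Ctrl, -0.09 in activated against naive Ctrl and -0.064 in plasma against activated Ctrl.

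Correlations of the deviations of libraries with the same replicate number ran between -0.21 and 0.31. Libraries with different numbers were not compared in this way, so whether the replicate number pairs libraries was not settled. With the number as a replicate block, 2 members were called relative to the family in naive KO against Ctrl, against 1 without it, and the other counts were within 1.5 times.

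Leaving out 1 library at a time gave 1 to 2 members higher and 0 to 1 lower in naive KO against Ctrl (1 to 4 relative to the family, with 2, 3 and 4 without naive KO 1, naive KO 2 and naive Ctrl 3), and 1 to 2 for the difference of the genotype effect between activated and naive cells (2 without naive KO 1 or 2). In plasma against activated cells it gave 5 to 9 higher and 7 to 17 lower in Ctrl and 4 to 9 lower in KO. The lowest counts in Ctrl were 5 higher without activated Ctrl 1 or 3 or plasma Ctrl 3, and 7 or 8 lower without plasma Ctrl 4 or without activated Ctrl 4 or plasma Ctrl 1; in KO they were 4, 5 and 6 lower without plasma KO 4, activated KO 3 and plasma KO 1. Ehmt2 changed sign without naive Ctrl 1 (0.115), activated KO 1 (-0.005) or activated Ctrl 3 (-0.068), with ranges of -0.394 to 0.115 in naive and -0.068 to 0.122 in activated cells. Depth limits the low members most: Rps4l and Rpl32l had at most 22.2 and 21.1 scaled RPKM in a library.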
